A study of Rattus norvegicus with 29 samples.

Results

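The genes described here encode the rat major histocompatibility complex (MHC), named RT1 in this species, and the proteins that load its molecules with peptide or act beside them when antigen is shown to T cells. Members were the array probes whose deposited gene name starts with RT1-, together with the probes for Cd74, Ciita, B2m, Tap1, Tap2, Tapbp, Ctss, Erap1, Cd80, Cd86 and Cd1d1. Of 41012 probes on the array, 58 carried such a name, and 54 of them, under 37 gene names, gave a sample signal well above background on at least 4 arrays. These 54 probes comprised 30 for class I loci, 7 for class I partners (B2m, Tap1, Tap2 and Tapbp), 11 for class II loci, 3 for class II partners (Cd74 and Ctss), 2 for costimulators (Cd80 and Cd86) and 1 for Cd1d1. The 4 that did not pass were the probes for RT1-M2 and RT1-M10-1 and 1 of the 2 probes for RT1-M6-2, above background on 0 arrays each, and the probe for RT1-T24-2, above background on 1 array. No probe was named Ciita or Erap1. Probes under older names of these and of 3 other genes of the group (C2ta, Arts1, Hla-dma, H2-T18 and RT1.M4; 6 probes) lay outside the rule, and adding them changed no count of calls. The probe named RT1-Ke4, counted here with the class I loci because of its name, has an accession that RefSeq assigns to Slc39a7, a zinc transporter gene within the MHC.

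RNA came from peripheral blood mononuclear cells of 29 male Wistar rats, 6 months old, prepared on a Ficoll gradient from blood of the saphenous vein, with 1 array per rat. From the age of 2 months the rats had been kept for 4 months on chow (control diet) or on chow with a cafeteria diet that the labels describe as fat-rich and hypercaloric (those rats being called obese), and were sampled with free access to food (fed), after a 14 h fast (fasted), or after a 14 h fast and 6 h of renewed access to food (refed). Each diet thus had a fed, a fasted and a refed group, with n = 4 in the control fed group and n = 5 in every other. Each array compared a rat (Cy5 dye) with a pool of RNA of all groups (Cy3 dye), without dye swaps. A value here is thus log2(Cy5/Cy3), and a difference of 1 between groups is a 2-fold difference in that ratio.

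Class I molecules pair a polymorphic heavy chain with the invariant light chain beta-2-microglobulin (B2m) on nearly all nucleated cells and on platelets, and show peptides of the cell's own proteins to CD8 T cells. The peptides are carried into the endoplasmic reticulum by the Tap1-Tap2 transporter and loaded with the help of tapasin (Tapbp). In the rat, RT1-A genes encode the classical class I molecules, whereas the many RT1-CE, RT1-N, RT1-M, RT1-S and RT1-T genes are mostly non-classical. Class II molecules, the RT1-B and RT1-D pairs of an alpha and a beta chain, are mainly restricted to B cells, monocytes and dendritic cells and show peptides taken from endosomes to CD4 T cells. Their transport depends on the invariant chain Cd74, which cathepsin S (Ctss) degrades, and RT1-DO modulates peptide exchange. Probes of near-identical RT1 loci can hybridise with each other's transcripts, so a value belongs to a probe, and only tentatively to the locus in its name.

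The upstream regions are shown first, with sequence motifs whose letters were searched in the genes of every class. Whether these motifs regulate the genes was not tested. For 33 of 34 current gene symbols of the members, a window from 250 bases before to 50 bases after the gene's start was found in RefSeq (assembly GRCr8). The class II windows are shown for the Y box, a reverse CCAAT motif bound by NF-Y, searched as CTGATTGG on both strands and given in capitals. The letters lay in the windows of 5 of 6 class II loci (all but RT1-DOb), of 7 of 18 class I loci, and in 3.5% of 33469 promoter windows of the same length.
RT1-Da, chr20:4515265-4515384, plus strand: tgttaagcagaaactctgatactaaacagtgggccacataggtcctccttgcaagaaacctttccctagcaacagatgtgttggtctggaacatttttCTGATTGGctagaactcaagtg
RT1-Db1, chr20:4560193-4560312, minus strand: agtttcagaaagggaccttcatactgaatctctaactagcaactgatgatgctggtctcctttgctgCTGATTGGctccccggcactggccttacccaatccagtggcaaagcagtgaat
RT1-Ba, chr20:4576907-4577026, plus strand: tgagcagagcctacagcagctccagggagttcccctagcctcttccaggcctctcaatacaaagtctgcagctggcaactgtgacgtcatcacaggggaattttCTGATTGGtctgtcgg
RT1-Bb, chr20:4604149-4604268, minus strand: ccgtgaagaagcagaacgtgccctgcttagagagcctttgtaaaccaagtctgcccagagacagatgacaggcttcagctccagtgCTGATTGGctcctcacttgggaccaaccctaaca

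The class I heavy chain genes RT1-A2 and RT1-A3 are shown for a palindromic motif of the kind bound by NF-kappa B (the 10 letters in capitals, searched on both strands). The letters lay in the windows of 5 of 18 class I loci (RT1-A2, RT1-A3, RT1-CE10, RT1-CE16 and RT1-CE4), in 0 of 6 class II loci and in 0.114% of all windows. The 2 stretches share the motif within near-identical surroundings.
RT1-A2, chr20:4872641-4872760, plus strand: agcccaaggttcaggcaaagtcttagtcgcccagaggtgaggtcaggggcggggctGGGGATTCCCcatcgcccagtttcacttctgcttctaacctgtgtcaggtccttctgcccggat
RT1-A3, chr20:4849221-4849340, plus strand: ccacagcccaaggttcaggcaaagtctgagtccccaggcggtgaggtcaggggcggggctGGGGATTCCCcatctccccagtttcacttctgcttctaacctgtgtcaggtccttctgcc

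B2m, RT1-S3 and Tapbp are shown because they are the class I genes whose probes passed the test on refeeding (below), with letters of the interferon-response type in capitals, searched on both strands as GAAA, any 2 bases and GAAA again. These letters lay in the windows of 4 of 4 class I partners, 2 of 18 class I loci (RT1-S3 and RT1-N3), Ctss and Cd80, and in 3.92% of all windows. In RT1-S3 the match is on the other strand, and in Tapbp 2 matches overlap. A match is a description of letters and not of binding.
B2m, chr3:129549150-129549269, plus strand: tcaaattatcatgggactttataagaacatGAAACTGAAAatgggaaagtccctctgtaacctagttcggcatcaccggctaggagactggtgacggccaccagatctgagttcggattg
RT1-S3, chr20:2675378-2675497, plus strand: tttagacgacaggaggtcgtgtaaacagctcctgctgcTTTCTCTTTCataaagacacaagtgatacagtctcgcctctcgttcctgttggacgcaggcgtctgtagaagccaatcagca
Tapbp, chr20:4967878-4967997, minus strand: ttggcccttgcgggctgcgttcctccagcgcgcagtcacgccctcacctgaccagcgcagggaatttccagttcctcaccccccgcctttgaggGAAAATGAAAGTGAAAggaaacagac

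Over all arrays the median Cy5 signal per array was 103.2 to 154.2, and 53.3 to 66.7% of spots were well above background. The images had been extracted in 2 runs, of 14 and 15 arrays, with a median Cy5 of 138.3 ± 7.10 (SD, n = 14) and 114.2 ± 7.69 (SD, n = 15), and the runs were unevenly spread over the groups (4 of 5 control fasted arrays and 2 of 5 control refed arrays were in the first). Of the 54 probes, 51 were above background on every array, and no member spot was saturated in either channel. The labelled cell type was checked against lists of markers: 7 of 11 B cell, 10 of 11 monocyte, 3 of 8 dendritic cell, 9 of 10 T cell and 7 of 7 natural killer (NK) cell markers were measured, and so were 6 of 10 platelet, 5 of 8 erythroid and 8 of 9 neutrophil markers. Cd163 (monocytes), Xcr1 and Zbtb46 (dendritic cells) had probes that were above background on 0 arrays. In these bulk samples, fewer cells of a type and less RNA per cell cannot be told apart.

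Refeeding of control rats gave the only falls of members that passed the test. In the limma fit across 28193 probes, 9.5% passed an adjusted p of 0.05 (Benjamini-Hochberg) between control refed and control fasted rats, 6.22% lower and 3.27% higher. Among the 54 member probes 7 passed, all lower: 4 of 4 for B2m, 2 of 2 for RT1-S3, and the single probe for Tapbp. With 1 probe per gene 3 of 37 members (8.11%) passed, beside 9.73% of 24218 probes, so counted by gene the members were not called more often than the rest. By class, 5 of 7 class I partner probes and 2 of 30 class I locus probes fell, and 0 of 11 class II locus and 0 of 3 class II partner probes passed in either direction (0 of these 14 at an unadjusted p of 0.05). The median difference was -0.84 for the class I partners, of which 4 of 7 are B2m probes (-1.23 to -0.84) and the others lie nearer 0 (Tapbp -0.40, Tap1 -0.22, Tap2 -0.0017), and -0.44 for the class I loci, with 27 of 30 locus probes below 0. It was -0.18 for the class II loci and 0.16 for the class II partners, and 0.015 over all probes.

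B2m, the light chain of every classical class I molecule, had the largest falls that passed. On its brightest probe (A_44_P214040, rn4 chr3:108931019-108932504) the values of the control fasted rats were 0.83, 0.93, 1.28, 1.34 and 1.07. In the control refed rats they were -0.30, -0.82, -0.11, 0.99 and -0.44. A single refed rat, number 12, lay within the fasted range and the other 4 lay below it. B2m fell by 1.23 ± 0.32 (SE), a 2.35-fold change of the ratio (95% interval -1.88 to -0.58, adjusted p = 0.0122, limma). The raw Cy5 signals of this probe were 506648 to 562267 in the fasted and 327114 to 454738 in the refed rats. Those of the Cy3 pool were 61667 to 92421 and 68118 to 183872, so part of the change lay in the reference channel. Why the Cy3 signals differed was not tested. On a second probe (A_44_P535612, rn4 chr3:108933795-108933854) the groups did not overlap, with 0.69, 0.88, 1.1, 0.91 and 1.04 in the fasted rats and -0.06, -0.13, -0.02, 0.46 and -0.05 in the refed rats. The fall there was 0.89 ± 0.18, or 1.85-fold (adjusted p = 0.00251), with raw Cy3 signals of 53182 to 70508 fasted and 63989 to 93766 refed. The other B2m probes fell by 1.19 ± 0.31 (A_43_P11442, adjusted p = 0.0125) and 0.84 ± 0.19 (A_44_P122632, adjusted p = 0.0045). Their raw Cy3 signals were 61488 to 83763 fasted and 68695 to 138714 refed (A_43_P11442), and 39650 to 54440 and 47139 to 67140 (A_44_P122632). Without refed rat 6 the falls on A_44_P214040 and A_43_P11442 were 1.06 (difference -1.06) and 1.04 (difference -1.04) and missed the threshold, with adjusted p = 0.0532 and 0.0529, whereas the other B2m probes passed in all 10 fits that left out 1 array.

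RT1-S3 is a non-classical class I locus. Its probe A_44_P128151 (rn4 chr20:2817942-2818001) read 0.28, 0.26, 0.46, -0.09 and 0.19 in the control fasted rats. The refed rats read -0.92, -0.79, -0.16, -0.55 and -0.34, all below the lowest fasted rat. RT1-S3 fell by 0.77 ± 0.20, or 1.71-fold (adjusted p = 0.0117, limma), and with the Cy5 signal alone the difference was -0.49 (adjusted p = 0.103). Its other probe, A_44_P454420, fell by 0.85 ± 0.27 (adjusted p = 0.0465), also without overlap, with 0.50 to 0.75 in the fasted and -0.85 to 0.31 in the refed rats. This call was a marginal one: it was kept in 1 of the 10 fits that left out an array of the groups compared. It was also lost with processed signals (adjusted p = 0.0637), with median centring (adjusted p = 0.101), in the authors' deposited table (adjusted p = 0.0823) and with no filter on dim probes (adjusted p = 0.06).

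Tapbp encodes tapasin, which bridges class I molecules and the peptide transporter. Its probe (A_42_P698972, rn4 chr20:5111712-5111882) read 0.11, -0.20, -0.10, 0.08 and -0.13 in the control fasted rats. The refed rats read -0.45, -0.46, -0.46, -0.28 and -0.58, and the groups did not overlap. Tapbp fell by 0.40 ± 0.098, or 1.32-fold (adjusted p = 0.00865, limma), the smallest of the 7 falls in size and the one with the least spread. With median centring in place of the intensity-dependent loess the difference was -0.22 (adjusted p = 0.177), and in the authors' deposited table it was -0.23 (adjusted p = 0.184). The transporter genes gave no call: Tap1 differed by -0.22 (95% interval -0.50 to 0.065) and Tap2 by -0.0017 (95% interval -0.38 to 0.37).

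Among the class I heavy chain probes that did not pass, RT1-A3 had the largest difference, -1.37 ± 0.46 (adjusted p = 0.0568), with fasted rats between -0.04 and 0.55 and refed rats between -2.34 and 0.18. RT1-CE16 differed by -0.70 ± 0.23 (adjusted p = 0.052), and its groups did not overlap. In all, 8 of 54 member probes had control fasted and refed groups that did not overlap, beside 9.62% of all probes. At an unadjusted p of 0.05, 17 of 30 class I locus probes (56.7%) were counted, all with negative differences, beside 21.7% of all probes at that p.

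**Figure D1:**
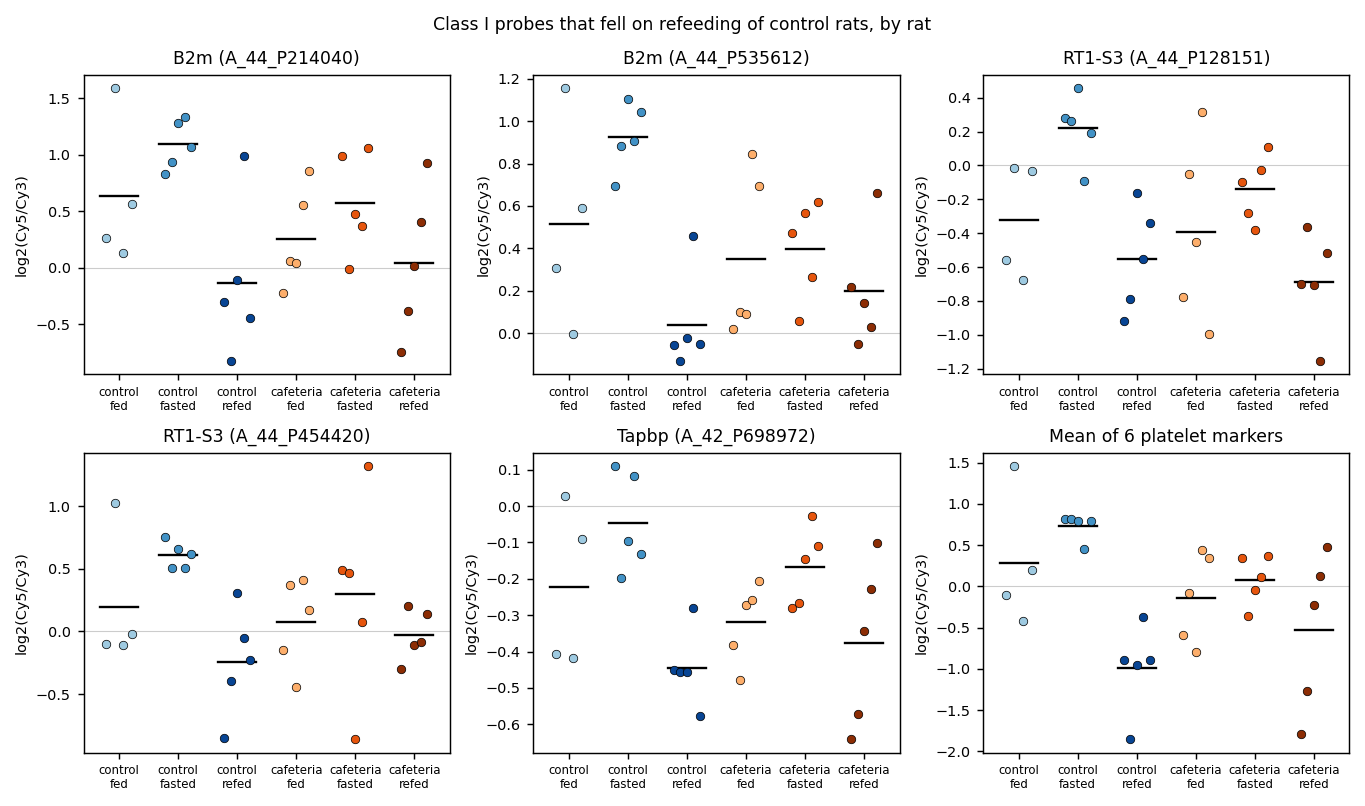
Log2(Cy5/Cy3) of 5 probes called on refeeding of control rats and the mean of 6 platelet markers, by group; each point is a rat and each bar a group mean. On RT1-S3 (both probes), Tapbp and B2m A_44_P535612 all 5 control refed rats lie below the 5 control fasted rats, on B2m A_44_P214040 4 of 5 do, and the platelet marker mean separates the same groups.

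Markers of platelets moved with this comparison. All 6 measured platelet markers fell between control fasted and control refed rats, with a median difference of -1.76. Their mean went from 0.73 ± 0.16 (SD, n = 5) to -0.99 ± 0.53 (SD, n = 5), with fasted rats from 0.45 to 0.82 and refed rats from -1.85 to -0.37. None of the measured B cell, monocyte, dendritic cell, T cell, NK cell, erythroid or neutrophil markers passed in this comparison (limma, adjusted p of 0.05). When each array's platelet mean entered the fit as a covariate, 0 of the 7 falls passed, and the count over all 28193 probes went from 2677 to 0. The differences in that fit were 0.12 and 0.090 for B2m A_43_P11442 and A_44_P214040, -0.23 and -0.27 for B2m A_44_P122632 and A_44_P535612, -0.091 for Tapbp, and -0.54 and -0.26 for RT1-S3 A_44_P128151 and A_44_P454420. The marker mean itself did not overlap between these 2 groups. Within the extraction runs, the falls of B2m A_44_P535612 were -0.99 (2 refed and 4 fasted rats) and -0.91 (3 and 1), and those of RT1-S3 A_44_P128151 were -1.08 and -0.54.

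Refeeding of cafeteria rats, compared with fasted rats of the same diet, gave 1 member call, on a class II locus. Over all probes 0.975% passed, 0.553% higher and 0.422% lower. The class I differences lay mostly below 0 again, but none passed (limma, adjusted p of 0.05; 8 of 30 class I locus and 2 of 7 partner probes at an unadjusted p of 0.05, beside 12.1% of all probes). The median was -0.31 for the class I loci (27 of 30 below 0) and -0.27 for the class I partners (7 of 7 below 0), beside -0.0046 over all probes. The refeeding comparisons of the 2 diets share no arrays, and 24 of 30 class I locus probes and 7 of 7 partner probes were below 0 in both. The share of all probes below 0 in both was not counted. Most partner probes are for B2m, and locus probes can hybridise with each other's transcripts, so the probes are not independent of each other. All 6 platelet markers were also below 0 in both diets (medians -1.76 and -0.60).

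The genes called in control rats had differences of the same sign in cafeteria rats, none of which passed. B2m A_44_P214040 read 0.99, -0.01, 0.48, 0.37 and 1.06 in the cafeteria fasted and -0.75, -0.38, 0.01, 0.40 and 0.93 in the cafeteria refed rats. The groups overlapped widely, and the difference was -0.53 (95% interval -1.19 to 0.12), from -0.76 to -0.34 when 1 array was left out and -0.064 with the platelet covariate. Tapbp differed by -0.21 ± 0.098 (adjusted p = 0.38), and RT1-S3 A_44_P128151 by -0.55 ± 0.20 (adjusted p = 0.212). The platelet marker mean went from 0.083 ± 0.30 to -0.53 ± 0.96 (SD, n = 5 each), with overlap, and 0 of 6 platelet markers passed. The difference in refeeding response between the diets was tested as an interaction: 0 of 28193 probes passed (limma; 2064 at an unadjusted p of 0.05, 4 of them members). For B2m A_44_P535612 the interaction was 0.69 ± 0.26 (adjusted p = 0.651), and 0.29 with the platelet covariate, so a difference between the diets was not shown.

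Tap2, a subunit of the peptide transporter, had the smallest p among class I members in the cafeteria comparison. It read 0.14, 0.08, 0.10, -0.11 and 0.24 in the cafeteria fasted and -0.98, -0.28, -0.25, -0.65 and -0.59 in the refed rats. The groups did not overlap, yet the difference of -0.64 ± 0.18 did not pass over all probes (adjusted p = 0.0886, limma). RT1-CE3 (-0.96 ± 0.29, adjusted p = 0.11) and RT1-CE16 (-0.75 ± 0.23, adjusted p = 0.114) also had groups without overlap. In all this held for 5 of 54 member probes, beside 3.48% of all probes.

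**Figure D2:**
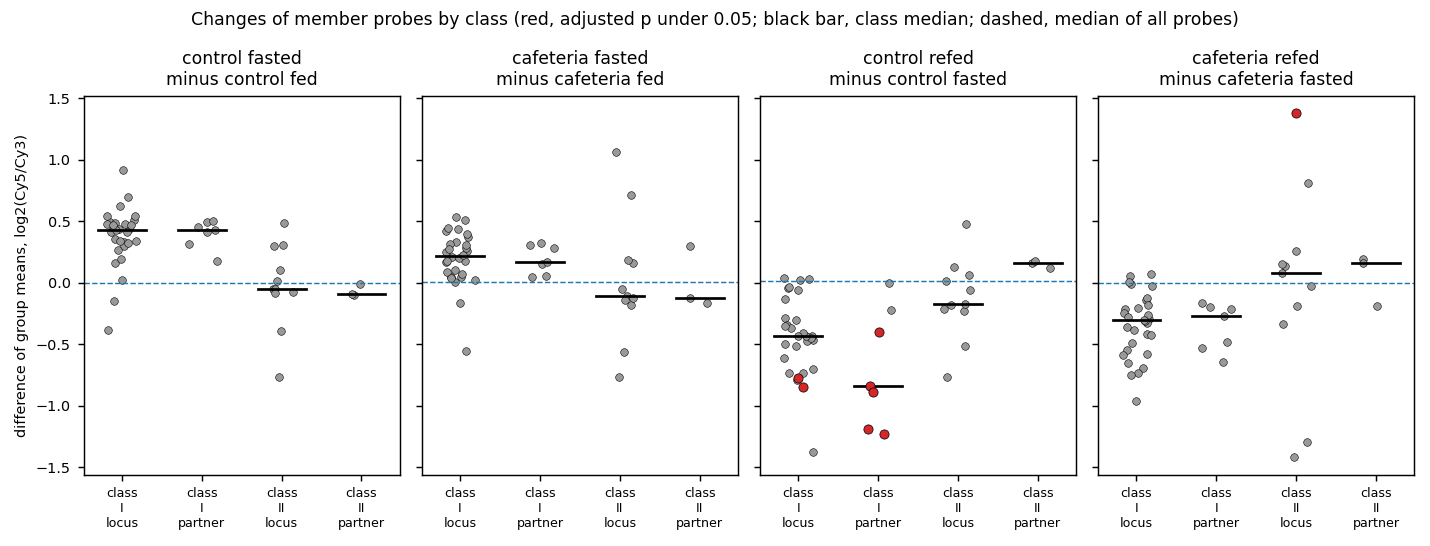
Differences of group means in log2(Cy5/Cy3) for each class I and class II member probe (points) in 4 comparisons; red points have an adjusted p under 0.05, black bars are class medians and dashed lines the median of all probes. Class I probes lie mostly above 0 on fasting (28 of 30 locus probes in either diet) and mostly below 0 on refeeding (27 of 30 in either diet), and class II medians stay between -0.18 and 0.16.

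Fasting itself gave no member call. Between control fasted and control fed rats 0.0568% of all probes passed, and 0 of 54 members did (limma; 16, or 29.6%, at an unadjusted p of 0.05, beside 10.2% of all probes). Between cafeteria fasted and cafeteria fed rats 1.28% of all probes passed, and again 0 of 54 members (limma; 4, or 7.41%, at an unadjusted p of 0.05, beside 11.2% of all probes). Class I locus probes had a median of 0.43 in control and 0.22 in cafeteria rats, with 28 of 30 above 0 in each diet and 26 of 30 above 0 in both. Class I partners had medians of 0.43 and 0.17 (7 of 7 above 0 in both diets). The 6 platelet markers were also above 0 in both diets (medians 0.51 and 0.19). The share of all probes above 0 in both was not counted. The medians over all probes were 0.00029 and 0.0019. These values and those on refeeding share the fasted arrays of each diet, so the opposite signs are not independent of each other.

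Of the named members, RT1-CE6 had the smallest p in control rats, with fed rats at -0.54, -0.68, -0.84 and -0.44 and fasted rats at 0.15, -0.40, -0.07, -0.69 and 0.04. The groups overlapped, and the difference was 0.43 ± 0.16 (adjusted p = 0.305, limma). B2m A_44_P122632 differed by 0.50 ± 0.20 (adjusted p = 0.356) and B2m A_44_P214040 by 0.45 (95% interval -0.24 to 1.15), where fed rat 4 read 1.59 and the other fed rats 0.13 to 0.56. In cafeteria rats the smallest p was that of Cd80, the costimulator that binds Cd28: it read 0.08, 0.06, 0.00, 0.17 and 0.32 in the fed and -0.04, -0.09, -0.08, -0.19 and -0.09 in the fasted rats. The groups did not overlap (1 member of 54, beside 3.03% of all probes), but the difference of -0.22 ± 0.082 did not pass (adjusted p = 0.222). Cd80 was above background on 9 of the 29 arrays, so its values are close to background.

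Among the class II genes, 1 probe passed in the 4 feeding comparisons, and the class medians stayed near 0. Cd74, the invariant chain, read -0.37, -0.36, -0.16, -0.12 and -0.28 in the control fasted and -0.12, -0.50, 0.32, -0.20 and -0.19 in the control refed rats. The difference was 0.12 (95% interval -0.28 to 0.52), and in cafeteria rats 0.16 (95% interval -0.24 to 0.56). RT1-Da, the alpha chain of the RT1-D molecule, differed by 0.017 (95% interval -0.30 to 0.34) on refeeding of control rats and by 0.078 (95% interval -0.24 to 0.40) in cafeteria rats, on its brightest probe. RT1-Db1, its beta chain, differed by -0.056 (95% interval -0.43 to 0.31) and 0.14 (95% interval -0.23 to 0.51) on its brightest probe. The brightest RT1-Ba probe (A_44_P194167) differed by -0.77 (95% interval -1.98 to 0.44) and -1.29 ± 0.59 (adjusted p = 0.367), and that of RT1-Bb (A_44_P552452) by -0.51 (95% interval -1.94 to 0.92) and -1.42 ± 0.70 (adjusted p = 0.416). These are the class II probes with the widest spread between rats, described further down. RT1-DOb differed by -0.23 (95% interval -0.68 to 0.22) and -0.34 (95% interval -0.79 to 0.12). RT1-DOa, for which 4 arrays were left out because the spot was flagged, differed by 0.063 (95% interval -0.26 to 0.38) and 0.26 (95% interval -0.10 to 0.62). The unflagged spot of cafeteria fasted rat 11 was kept, at 0.15, with signals of only 47 (Cy5) and 46 (Cy3). The other arrays kept had 343 to 966 and 252 to 403. Leaving out 1 array gave 0.12 to 0.38 in cafeteria rats.

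The single class II call was a rise on 1 of the 3 probes for RT1-Db1 on refeeding of cafeteria rats. Probe A_44_P139882 (rn4 chr20:4677050-4677109) read -1.05, -0.63, -0.65, -0.49 and -0.99 in the cafeteria fasted and -0.05, 0.47, 0.98, 1.05 and 0.64 in the refed rats. The groups did not overlap, and the rise was 1.38 ± 0.29, or 2.61-fold (adjusted p = 0.0182, limma). The probe is dim, which limits this call. Its raw Cy5 signals were 104 to 151 in the fasted and 250 to 466 in the refed rats. On A_44_P130513 the cafeteria fasted rats had 24919 to 61171. Refed rat 9, at 0.98, had a Cy3 signal of 98, beside 135 to 176 on the other arrays. The other RT1-Db1 probes differed in the same comparison by 0.14 (A_44_P130513) and -0.031 (A_44_P130516). In control rats A_44_P139882 read -0.88, -1.09, -0.93, -0.45 and -1.05 fasted and -0.01, -0.23, -0.94, 0.10 and -0.94 refed, a difference of 0.48 ± 0.29 (adjusted p = 0.363). The call in cafeteria rats was lost without cafeteria fasted rat 11, cafeteria refed rat 9 or cafeteria refed rat 15, with adjusted p = 0.0541 to 0.0564. Within the extraction runs the rise was 0.58 (1 rat against 1) and 1.58 (4 against 4).

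Among the remaining members, cathepsin S (Ctss, A_44_P1004731) was among the steadiest, with a difference of 0.16 (95% interval -0.0085 to 0.34) on refeeding of control rats and of 0.19 (95% interval 0.021 to 0.37, adjusted p = 0.34) in cafeteria rats. Cd86, the other costimulator, differed by 0.35 (95% interval -0.043 to 0.75) and 0.27 (95% interval -0.13 to 0.66). Cd1d1, a class I-like molecule that presents lipids to NKT cells, differed by 0.068 (95% interval -0.11 to 0.24) and 0.024 (95% interval -0.15 to 0.20).

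No member passed the test between the diets. Over the 3 feeding conditions together 4.7% of all probes differed between the diets, and 0 of 54 members did (limma; 3, or 5.56%, at an unadjusted p of 0.05, beside 16.2% of all probes). The shares were 0.0213% in fed, 0.358% in fasted and 1% in refed rats, and 0 members in each (limma; 2, 3 and 3 at an unadjusted p of 0.05, or 3.7, 5.56 and 5.56%, beside 6.95, 13 and 9.6% of all probes). In fed rats RT1-M3, a class I-like gene, had the smallest p, with a difference of 0.31 ± 0.13 (adjusted p = 0.571). Without cafeteria fed rat 13, whose spot had a Cy3 signal of 3292 beside 6802 to 9409 on the other arrays, it was 0.15. Averaged over feeding conditions, class I loci had a median difference of -0.083 (25 of 30 below 0), class I partners of -0.18 (6 of 7 below 0), class II loci of 0.096 (8 of 11 above 0) and class II partners of 0.18 (3 of 3 above 0), beside 0.0071 over all probes. Measured B cell markers lay above 0 in the same comparison (7 of 7, median 0.17), none of them past the test, and their part in the class II values was not tested. Of the 3 class II partner probes, Ctss A_44_P355928 read 1.53 in cafeteria fasted rat 14 and at most 0.149 in the others. That spot had a Cy3 signal of 781, beside 5137 to 6716 on the other arrays. It raises the diet difference of this probe, and the class II partner median without it was not computed.

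In fasted rats 2 B2m probes had the smallest p between the diets, without passing. Probe A_44_P122632 read 0.29, 0.64, 0.56, 0.81 and 0.91 in control fasted and -0.11, -0.28, 0.27, 0.05 and 0.20 in cafeteria fasted rats. The groups did not overlap, as on 3 of 54 member probes and 4.18% of all probes, and the difference was -0.61 ± 0.19 (adjusted p = 0.154, limma). The 6 platelet markers lay below 0 in this comparison too, with a median of -0.68. With the platelet covariate the differences of B2m A_44_P122632 and A_44_P535612 were -0.38 (adjusted p = 0.274) and -0.30 (adjusted p = 0.386), beside -0.61 and -0.53 without it. The platelet marker mean did not overlap between these groups either (0.45 to 0.82 in control fasted and -0.36 to 0.36 in cafeteria fasted rats). The covariate therefore cannot separate diet from platelet markers here, and the part of platelets in the B2m difference was not tested. In refed rats RT1-Db1 A_44_P139882 was 1.02 ± 0.29 higher on the cafeteria diet (adjusted p = 0.0931). No difference in fasting response between the diets was called by the adjusted test (0 of 28193 probes, limma; 740 at an unadjusted p of 0.05, 0 of them members).

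Genes that supply, load or regulate MHC molecules, 44 in a list of which 39 were measured, gave few calls. On refeeding of control rats 2 fell (5.13% of 39, beside 9.5% of all probes). Cst3, a secreted inhibitor of cysteine cathepsins, fell by 2.08 ± 0.36 (adjusted p = 0.00127, limma) and Jak2, a kinase of cytokine receptors including that for interferon gamma, by 0.43 ± 0.093 (adjusted p = 0.00325). With that platelet covariate these differences were -0.48 and -0.15 and neither passed. The Jak2 call was also lost with median centring (-0.25, adjusted p = 0.154) and in the authors' deposited table (-0.28, adjusted p = 0.103). The peptide-supplying subunits of the immunoproteasome and its activator (Psmb8, Psmb9, Psmb10, Psme1, Psme2 and Psme3) gave 0 calls of 6 in this comparison, with a median of 0.078. None of the 39 passed on fasting in either diet, on refeeding of cafeteria rats, or between the diets in fed rats.

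Between the diets 4 genes of this list (10.3% of 39, beside 4.7% of all probes) passed over the 3 feeding conditions together. Calr, the chaperone calreticulin of the class I loading complex, was lower on the cafeteria diet by 0.82 ± 0.11 (difference -0.82, adjusted p = 4.59e-05, limma). Irf2, a repressor at interferon-response motifs, differed by -0.64 ± 0.098 (adjusted p = 0.000126), and Jak1, a partner kinase of Jak2, by -0.55 ± 0.070 (adjusted p = 2.28e-05). Ifngr2, a chain of the interferon gamma receptor, was 0.32 ± 0.095 higher (adjusted p = 0.048). Calr also passed in fasted rats (-0.96, adjusted p = 0.0265), and Irf2 and Jak1 passed in refed rats (-0.67 and -0.64, adjusted p = 0.0435 and 0.0107). Leaving out 1 array, the call for Calr in fasted rats was kept in 3 of 10 fits, that for Irf2 in refed rats in 1 of 10, and that for Ifngr2 in 8 of 29. With the extraction run as a covariate these 3 calls were lost: Calr in fasted rats differed by -0.85 (adjusted p = 0.074), Irf2 in refed rats by -0.65 (adjusted p = 0.068) and Ifngr2 by 0.28 (adjusted p = 0.0779). With the rat number as a block Ifngr2 differed by 0.31 (adjusted p = 0.119). Of the fasted arrays, 4 of 5 control and 1 of 5 cafeteria arrays were in the first run. Other settings lost these calls too (limma). Calr in fasted rats missed with median centring (adjusted p = 0.112) and in the authors' deposited table (adjusted p = 0.0627). Ifngr2 missed with processed signals, no filter on dim probes, 1 probe per gene and backgrounds as deposited (adjusted p = 0.0544 to 0.0617). Irf2 in refed rats missed with these 4, Cy5 alone, no background subtraction and the platelet covariate (adjusted p = 0.0521 to 0.124).

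MHC probes varied more between rats of a group than most probes did. The median residual SD of the 54 members was 0.326, beside 0.138 over all probes and 0.151 in the 2820 brightest probes, which held 35 of the members. Above the 95th percentile of all probes (0.372) lay 19 of 54 members, or 35.2%: 13 of 30 class I locus, 4 of 11 class II locus and 2 of 7 class I partner probes. The largest were RT1-Bb A_44_P552452 (1.18), RT1-Ba A_44_P194167 (1.00), RT1-A3 (0.775), RT1-Aw2 A_44_P196401 (0.766), RT1-CE10 (0.684) and RT1-T24-1 (0.553). The smallest were Cd80 (0.128), Ctss A_44_P1004731 (0.133) and Cd1d1 (0.134).

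Some of this spread lay in single rats. RT1-Bb A_44_P552452 (rn4 chr20:4730533-4730583), for the beta chain of the RT1-B molecule, read -3.96 in cafeteria fed rat 13 and -4.24 in cafeteria refed rat 12, and between -0.78 and 1.01 in the other 27 rats. The raw Cy5 signals of these rats were 2778 and 1571, the third lowest was 20538 and the median 39857. The other RT1-Bb probe, A_44_P500803, read 0.29 and 0.59 in the same 2 rats. RT1-Ba A_44_P194167, for the alpha chain, read 0.95 to 1.36 in 6 rats (control fed 7 and 13, control fasted 11, cafeteria fed 7, cafeteria fasted 8 and 11) and -0.55 or lower in the other 23. The 6 rats came from 4 of the 6 groups. Genotypes of the rats are not given in the sources used here.

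**Figure D3:**
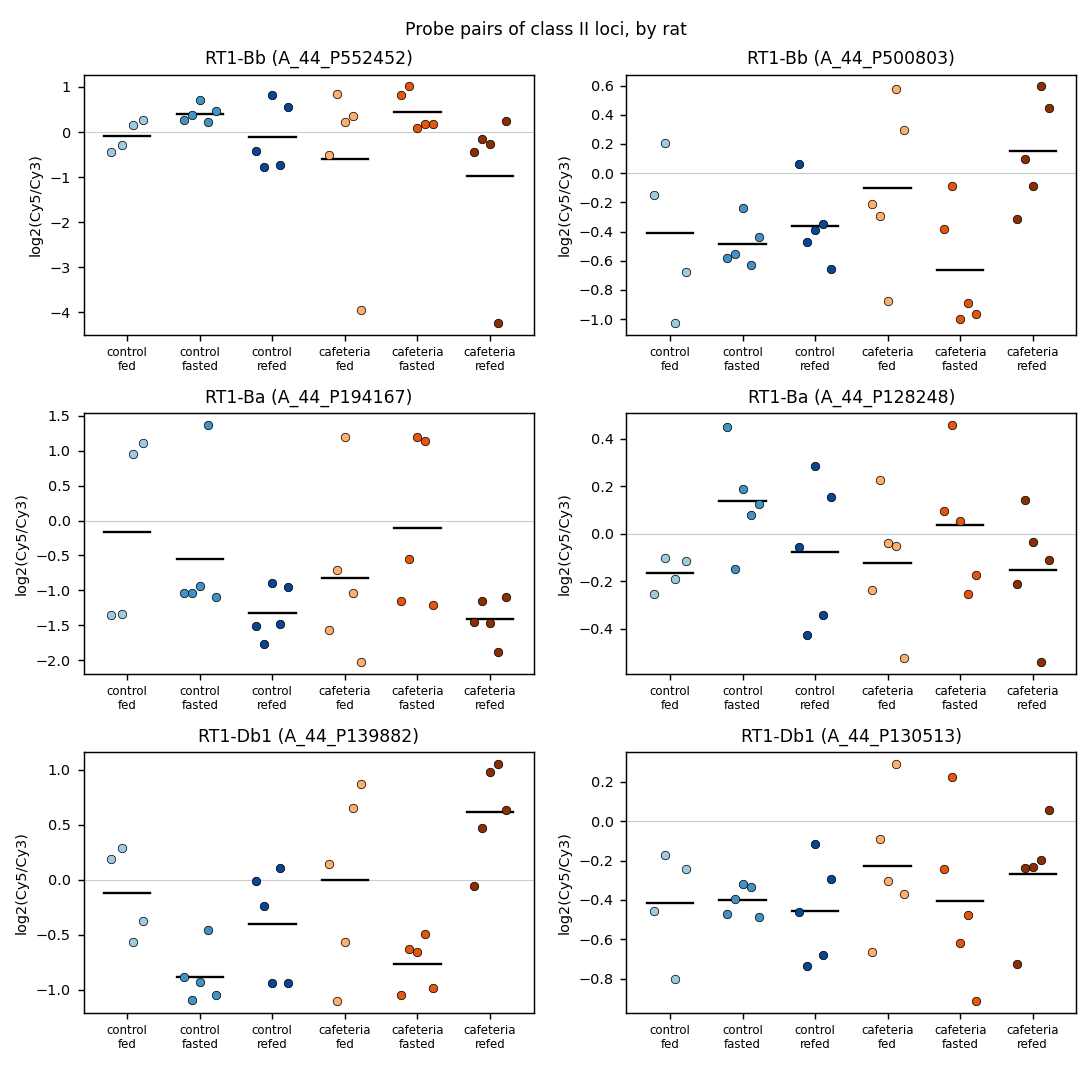
Log2(Cy5/Cy3) by group for 2 probes each of RT1-Bb, RT1-Ba and RT1-Db1; each point is a rat and each bar a group mean, and the vertical scales differ between panels. The left-hand probes show rats far from their group (RT1-Bb at -3.96 and -4.24, RT1-Ba in 6 rats at 0.95 to 1.36) and the rise of RT1-Db1 A_44_P139882 in refed cafeteria rats (1.38), where the right-hand RT1-Bb probe reads 0.29 and 0.59 in the 2 low rats and the right-hand RT1-Db1 probe differs by 0.14.

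The 2 rats that were low on RT1-Bb were low on further MHC probes. They held the 2 lowest values of 29 on 10 of 54 member probes (18.5%). Over all probes they held the 2 lowest or the 2 highest values on 0.472%, and the lowest were not counted apart. No other of the 406 pairs of rats held the 2 lowest or the 2 highest values on more than 6 member probes. The 10 were RT1-A2 A_44_P184753, RT1-Cl A_44_P554917, RT1-CE2, RT1-CE3, RT1-CE16, RT1-S3 A_44_P128151, both RT1-Ba probes, RT1-DOb and RT1-Bb A_44_P552452. On RT1-CE3, for example, they read -1.81 and -2.05, and the others -1.02 or higher. On RT1-Ba A_44_P128248, a dim probe (raw Cy5 of 60 to 209), they read -0.52 and -0.54, and the others -0.43 or higher. The pair was singled out after its values were seen. The arrays of the 2 rats were on different slides and in different extraction runs. They also had the most spots flagged as outliers, 329 and 287, beside 134 to 241 on the other 27 arrays. Spots with a replaced local background numbered 53 and 11, beside up to 44 on the other 27 arrays. The part of array quality in the low values was not tested. The Cy3 signals of both rats lay within the range of the other 27 on 10 of these 10 probes. Without cafeteria refed rat 12, the refeeding difference of RT1-Bb A_44_P552452 in cafeteria rats went from -1.42 ± 0.70 (adjusted p = 0.416) to -0.60.

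Probes under the same gene name did not always vary together. Correlations here are between deviations from group means across the 29 rats, all of which share the reference pool. The 4 B2m probes correlated with r from 0.753 to 0.992, and the 2 for RT1-Da with 0.886. Of the RT1-Db1 probes, A_44_P130513 and A_44_P130516 correlated with 0.903, and each with A_44_P139882, the dim probe that was called, with 0.095 and 0.02. The RT1-Bb probes correlated with -0.281, the RT1-Ba probes with 0.18 and the RT1-CE4 probes with 0.131. RT1-Ba A_44_P128248 was dim, with raw signals of 60 to 209 (Cy5) and 69 to 96 (Cy3), which limits its correlation. The Ctss probes correlated with -0.0554, but with 0.925 without cafeteria fasted rat 14, whose spot of A_44_P355928 had a Cy3 signal of 781, beside 5137 to 6716 on the other arrays. The 4 RT1-Aw2 probes gave -0.00346 to 0.926. Within classes the median over pairs of probes was 0.399 for class I loci (435 pairs) and 0.401 for class II loci (55 pairs), and between the classes 0.248 (330 pairs).

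**Figure D4:**
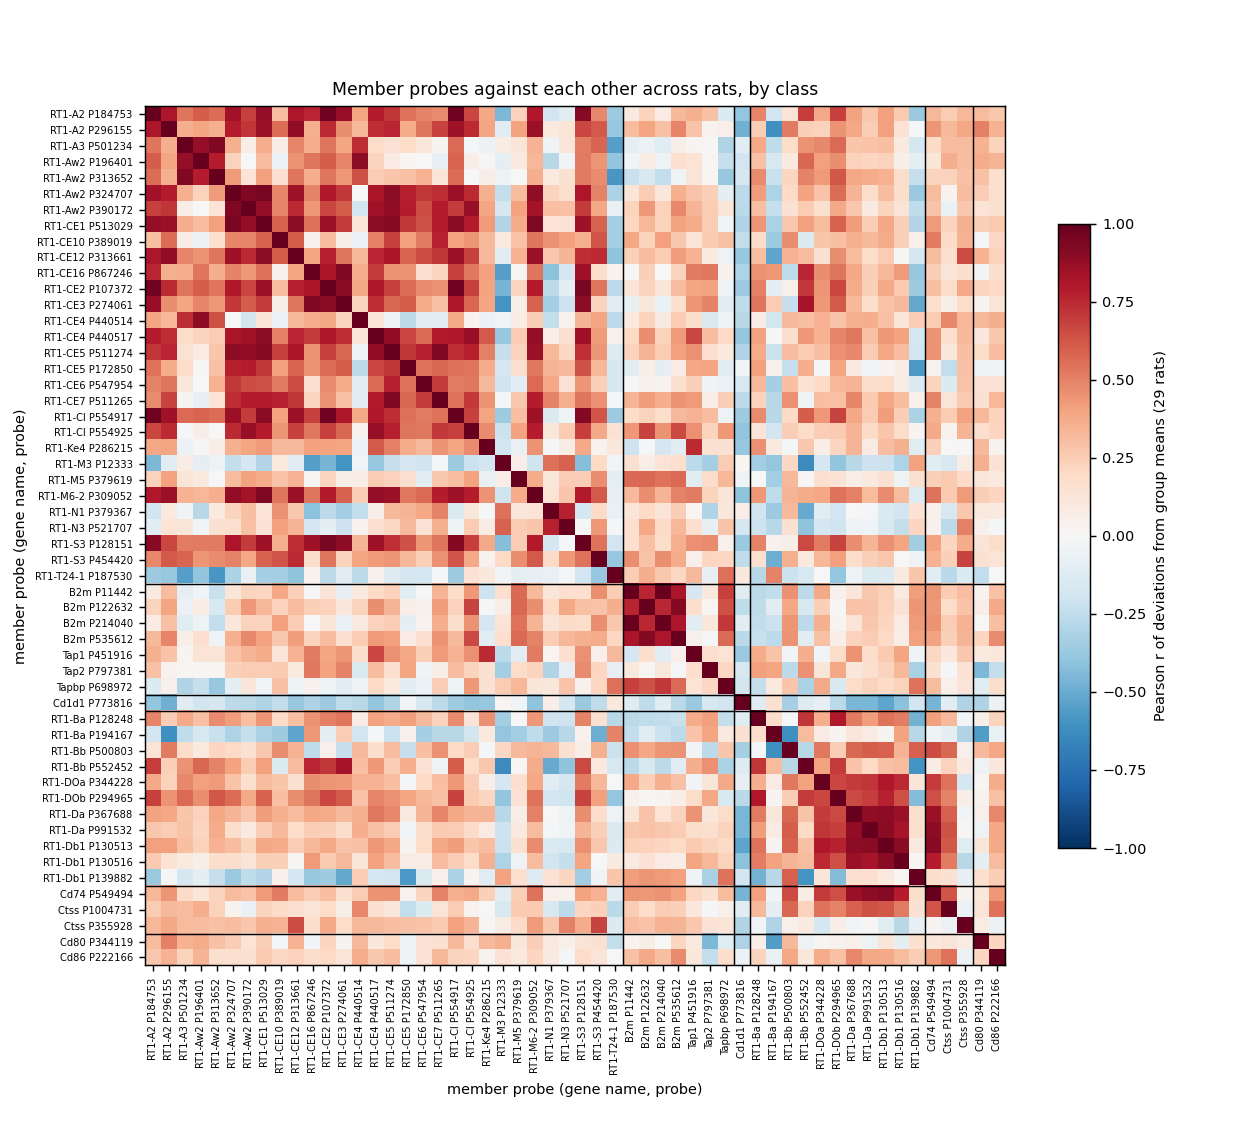
Pearson r between deviations from group means across 29 rats for every pair of the 54 member probes, ordered by class (black lines) and gene name. Red blocks mark class I locus probes that vary together, the 4 B2m probes (0.753 to 0.992) and the RT1-D and Cd74 probes, and probes such as RT1-Db1 P139882 and RT1-Ba P194167 stand outside their class.

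The RT1-D genes and the invariant chain varied together. For 9 pairs of measures, r and rho were computed with permutation tests (100000 permutations, two-sided) and adjusted over the 9. RT1-Da and RT1-Db1 (A_44_P130513) gave r = 0.902 and rho = 0.844 (adjusted p = 1.8e-05 and 2.25e-05; 1e-05 before adjustment is the smallest p these permutations can give). Without the 2 rats farthest from the median, r was 0.859, and within the extraction runs it was 0.923 and 0.871. RT1-Da and Cd74 gave r = 0.891 and rho = 0.88 (permutation, adjusted p = 1.8e-05 and 2.25e-05), 0.862 without 2 rats, and 0.924 and 0.85 within runs.

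The mean of the 7 measured B cell markers varied with both. Against Cd74 it gave r = 0.776 and rho = 0.697 (permutation, adjusted p = 1.8e-05 and 9e-05), 0.717 without 2 rats, and 0.784 and 0.787 within runs. Against RT1-Da it gave r = 0.61 and rho = 0.581 (permutation, adjusted p = 0.000615 and 0.00176), 0.545 without 2 rats, and 0.601 and 0.676 within runs. The mean of the monocyte markers against RT1-Da gave r = 0.432 and rho = 0.441 (permutation, adjusted p = 0.0238 and 0.0221), 0.419 without 2 rats, but 0.733 in the first run and 0.0613 in the second, so this relation did not hold within both runs.

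RT1-A2 and RT1-CE1, both class I heavy chain genes, varied together, and so did B2m and the platelet markers; whether one correlation exceeds another was not tested. RT1-A2 A_44_P296155 and RT1-CE1 gave r = 0.866 and rho = 0.792 (permutation, adjusted p = 1.8e-05 and 2.25e-05), 0.817 without 2 rats, and 0.866 and 0.898 within runs. B2m A_43_P11442 and the platelet marker mean gave r = 0.885 and rho = 0.865 (permutation, adjusted p = 1.8e-05 and 2.25e-05), 0.847 without 2 rats, and 0.832 and 0.897 within runs. The raw Cy3 signal of this B2m probe, from the common pool, ranged from 46536 to 138714 over the arrays. In the 2 rats left out it was 120812 (cafeteria refed rat 3) and 56362 (control fed rat 4). The part of the reference channel in this correlation was not tested. B2m and RT1-A2 gave r = 0.308 and rho = 0.307 (permutation, adjusted p = 0.104 for each), 0.152 without 2 rats, and -0.0575 and 0.608 within runs. The platelet marker mean and RT1-A2 gave r = 0.426 and rho = 0.417 (permutation, adjusted p = 0.0238 and 0.0284), 0.402 without 2 rats, and 0.308 and 0.573 within runs.

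**Figure D5:**
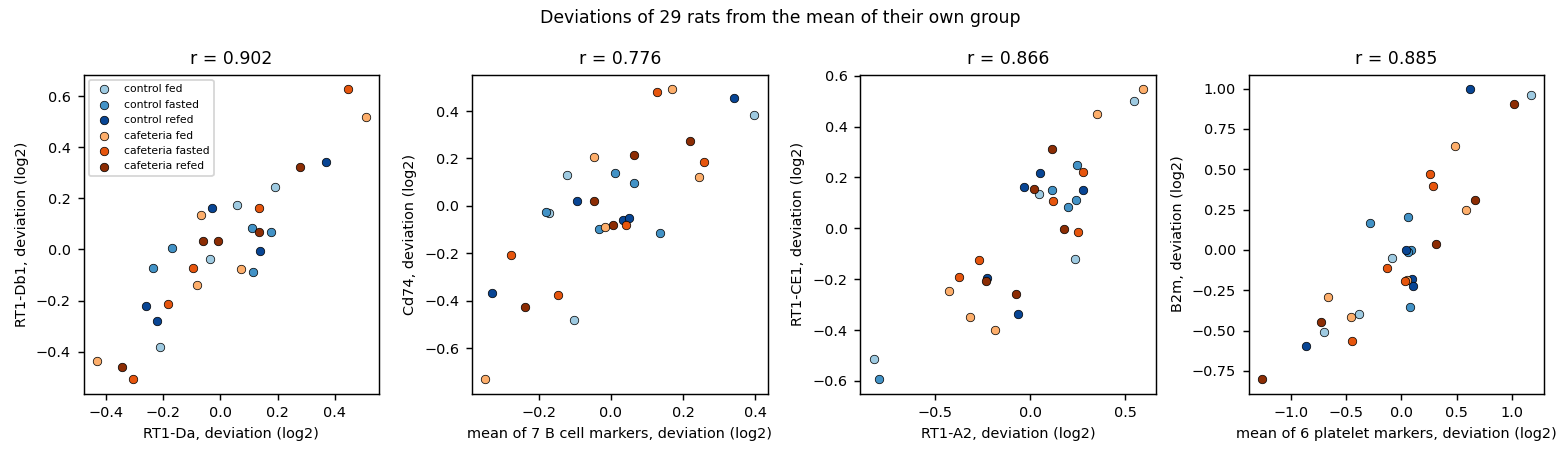
Deviations of each rat from the mean of its own group (log2) for RT1-Db1 against RT1-Da, Cd74 against the mean of 7 B cell markers, RT1-CE1 against RT1-A2, and B2m against the mean of 6 platelet markers; each point is 1 of 29 rats, coloured by group. All panels show a positive relation, with r = 0.902, 0.776, 0.866 and 0.885. The raw Cy3 signal of the B2m probe also varied between arrays, from 46536 to 138714.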

How the data were processed

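Two-colour Agilent arrays (29 rats, 1 array each; Cy5 sample, Cy3 pooled reference) were read from the deposited scanner files, whose mean and local background signals are intensities from Feature Extraction 9.5.1.1, per the submitters' processing notes and the file headers; positions are rn4. The authors' deposited table holds normalized Cy5 values on a log2 scale and served as an alternative. Local backgrounds over 3 times the array median (185 spots on 16 arrays) were replaced by that median, a step added after seeing the data: as deposited, they raised the 10th percentile of corrected Cy5 from at most 77.8 to 1260. Background was corrected by normexp (offset 50), arrays were loess-normalized, flagged outlier spots (5366) left out, and probes well above background in Cy5 on at least 4 arrays kept (28193 of 41012).

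One model over all 6 groups without covariates was fitted with limma 3.58.1 (lmFit and eBayes, R 4.3.3), with Benjamini-Hochberg adjustment over all probes in each comparison at 0.05. The model code was tested on simulated data. The number of arrays limits the precision; p-values measure the spread between rats. Correlations used 1e+05 permutations. Figures were drawn with matplotlib 3.10.9.

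Members, marker lists and the pathway list were chosen with earlier results of these data known. Named probes were the brightest of each single-copy member and class II locus, up to 8 called members per direction and comparison, the 6 with the largest and 3 with the smallest residual SD, the 2 smallest p where none was called, and up to 4 called pathway genes per direction; others are named for groups without overlap, for differing probes or for extreme rats, chosen after their values were seen. Rat numbers did not pair the arrays (14 pairs, correlations of deviations from -0.167 to 0.124). The alternatives were other background, normalization and filter choices, the authors' table, run, slide, rat number and platelet markers as terms, and leaving out each array. Exon annotation was not used here.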

Additional observations from a re-analysis of the deposited data

Results flagged for a closer look

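Among the named member probes, 13 of 161 sets of values (a probe in a group of rats) held a rat whose gap to its nearest neighbour, relative to the range of the group, exceeded Dixon's 95% critical value. Chance gives about 1 in 20. Over all member probes the share was 8.98% (29 of 323), beside 5.59% over all probes tested.

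Of the class I partners, B2m stood apart in control refed rat 12 on 2 probes, with 0.188 on A_44_P122632 and 0.46 on A_44_P535612, above the 4 other refed rats. Tap1 was low in cafeteria fasted rat 2 (-0.52). Among class I loci, RT1-S3 A_44_P454420 was high in control fed rat 4 (1.02), RT1-T24-1 in control fasted rat 11 (0.665) and RT1-CE6 in cafeteria fasted rat 14 (0.0873). RT1-A3 was low in cafeteria fasted rat 8 (-1.28), and so was RT1-Aw2 A_44_P196401 in the same rat (-1.13) and in cafeteria refed rat 12 (-3.17).

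Of the class II loci, RT1-Bb A_44_P552452 was low in cafeteria fed rat 13 (-3.96) and cafeteria refed rat 12 (-4.24), and RT1-Ba A_44_P194167 was high in control fasted rat 11 (1.36). The costimulator Cd80 was low in cafeteria refed rat 12 (-0.25).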

How the results depend on the processing

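The count of 7 member probes that fell on refeeding of control rats was 3 with 1 probe per gene (fewer probes tested), 0 with platelet markers as a covariate, and 4 to 9 when 1 array was left out. The 1 call on refeeding of cafeteria rats became 0, 2 and 0 to 1. Calls of Tapbp and RT1-S3 on refeeding of control rats were also lost with some other settings, as given above. Between diets in refed rats the count was 0 to 1 when 1 array was left out, and for the other comparisons 0 in each such fit. With the rat number as a replicate block the count was 0 in each of the 6 comparisons it could be fitted for, as without it; the numbers did not pair the arrays. Some differences changed sign, and the cause was not tested. They included the 2 largest falls that had passed, those of B2m A_43_P11442 and A_44_P214040, with the platelet covariate. The others were small and had not passed. On refeeding of control rats Tap2 became 0.0095 with processed signals, 0.14 with median centring, 0.096 with Cy5 alone, 0.12 with the authors' deposited table, 0.090 with the platelet covariate and 0.023 with backgrounds as deposited (chosen after seeing the data). RT1-Db1 A_44_P130513 became 0.079 (median centring), 0.097 (Cy5 alone), 0.050 (authors' deposited table) and 0.30 (platelet covariate), RT1-DOa -0.013 (extraction run as covariate), and with the platelet covariate B2m 0.12 (A_43_P11442) and 0.090 (A_44_P214040) and Cd1d1 -0.015. On refeeding of cafeteria rats Cd80 became -0.044 (processed signals) and -0.0060 (Cy5 alone), Cd1d1 -0.017 (authors' deposited table) and -0.0052 (platelet covariate), and RT1-Da -0.023 (authors' deposited table). Leaving out 1 array gave, for control rats, Tap2 -0.058 to 0.028, RT1-Da -0.076 to 0.082, RT1-Db1 A_44_P130513 -0.14 to 0.014 and RT1-DOa -0.014 to 0.11, and for cafeteria rats Cd1d1 -0.024 to 0.065 and Cd80 -0.017 to 0.046. Cd80 is near background, which limits it.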
